A study of Homo sapiens with 8 samples.

Results

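The genes described here are 50 genes of mitosis and the kinetochore, listed by symbol and found in the deposited table through the GENCODE v44 gene of each transcript. All 50 of them were among the 62639 genes of the table. They fall into 6 groups by role, with 4 genes of the chromosomal passenger complex, 5 of the spindle checkpoint, 11 of mitotic entry and exit, 9 of the inner kinetochore, 12 of the outer kinetochore, and 9 of the spindle and cytokinesis. Their RNA was measured in MOLM-13, a human acute myeloid leukemia cell line, which in both groups carried a lentiviral construct whose shRNA, together with the surface marker ΔLNGFR, is switched on by doxycycline (dox), and which also makes mCherry at all times. In 4 libraries the shRNA was directed against PTBP1 (shPTBP1) and in 4 it was scrambled (shSCR), and all 8 came from cells kept on dox for 9 days. PTBP1 is an RNA-binding protein that controls splicing, and the comparison asks how gene expression and splicing differ when it is depleted. The study describes a single shRNA against PTBP1, so an effect of PTBP1 loss and one of that shRNA sequence cannot be told apart.

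Mitosis begins when CDK1, bound to a B-type cyclin, phosphorylates its many substrates, and it ends when the anaphase-promoting complex, activated by CDC20, marks cyclin B and securin for destruction. In between, the kinetochore joins each centromere to spindle microtubules: the inner kinetochore sits on chromatin that holds the histone variant CENPA, and the outer kinetochore, with the NDC80 complex at its core, grips the microtubule. The chromosomal passenger complex, which contains the kinase AURKB, destabilizes faulty attachments, and the spindle checkpoint holds CDC20 back until every kinetochore is attached. Most of these genes are transcribed in waves that peak in G2 and M phase, so in bulk RNA a smaller share of dividing cells and less RNA in each dividing cell cannot be told apart.

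The libraries held 1528449 to 1613342 counts and 12322 to 12589 genes with at least 1 count, and no library stood apart in depth. PTBP1 itself had 10, 15, 13 and 23 counts in the shPTBP1 libraries and 65, 90, 64 and 78 in the shSCR libraries, and its paralog PTBP2 had 185 to 199 and 1 to 4, so the targeted gene was lower in every library labelled shPTBP1, as the label gives, and PTBP2, on which the labels say nothing, was higher. Of 12 myeloid marker genes all had at least 1 count, although SPI1 had only 1 count over the 8 libraries; their summed level was 766 to 864 normalized CPM (counts scaled to a common library size) in the shPTBP1 libraries and 691 to 746 in the shSCR libraries. The 5 T cell and the 5 erythroid markers were at 0 in all libraries. The 5 B cell markers, 1 of them at 0 throughout, held 51 counts in all and summed to 2.6 to 3.9 CPM in the shPTBP1 libraries and 3.7 to 6.0 CPM in the shSCR libraries. The 6 epithelial and fibroblast markers, none at 0 throughout, held 153 counts and summed to 9.91 to 14.5 and 11.5 to 14.0 CPM. CSF1R was the only marker gene called (log2 fold change -0.97, edgeR adjusted p = 0.0375). Whether these marker differences bear on the results below was not tested.

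Of the 50 genes 48 had enough counts to be tested. CENPA had 2 to 5 counts in the shPTBP1 libraries and 4 to 7 in the shSCR libraries, INCENP had 0 to 7 and 1 to 3, and neither was tested. Among the 48, 25 had at least 100 counts in every library. All fold changes are of shPTBP1 over shSCR, from edgeR's quasi-likelihood test on gene sums, and a gene was called when its p, adjusted by the Benjamini-Hochberg method over all 7597 genes tested, was under 0.05. The test called 3 of the 48 lower, CKS1B, CDC20 and CDCA8, where it called 3.19% of all genes lower. It called 0 higher, where it called 2.36% of all genes higher and 5.54% either way. At an unadjusted p under 0.05 there were 11 of the 48, against 19.2% of all genes, and the 8 that were not called were split into 4 lower and 4 higher. DESeq2 and limma-voom each called the same 3 genes and none higher.

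Most of the tested genes differed little between the groups. The median log2 fold change was -0.03 over the 48 genes and -0.00014 over all genes tested, and 29 of the 48 (60.4%) were within 0.2 of 0 on the log2 scale, as were 56.1% of all genes. Summed over the 50 genes, expression was 6103, 6224, 6244 and 6093 CPM in the shPTBP1 libraries and 6481, 6724, 6482 and 6511 CPM in the shSCR libraries. These sums did not overlap. Without CKS1B, CDC20 and CDCA8 the remaining 47 genes summed to 5070, 5139, 5166 and 5060 CPM after shPTBP1 and to 5122, 5165, 5126 and 5042 CPM after shSCR. These sums overlapped, but the genes left out were chosen because they were called lower, so this is a description and no support for the other genes being unchanged. The plot of fold changes by group shows the 3 called genes below other genes of the same role that were not called. Whether they differ from the rest of their groups was not tested.

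**Figure D1:**
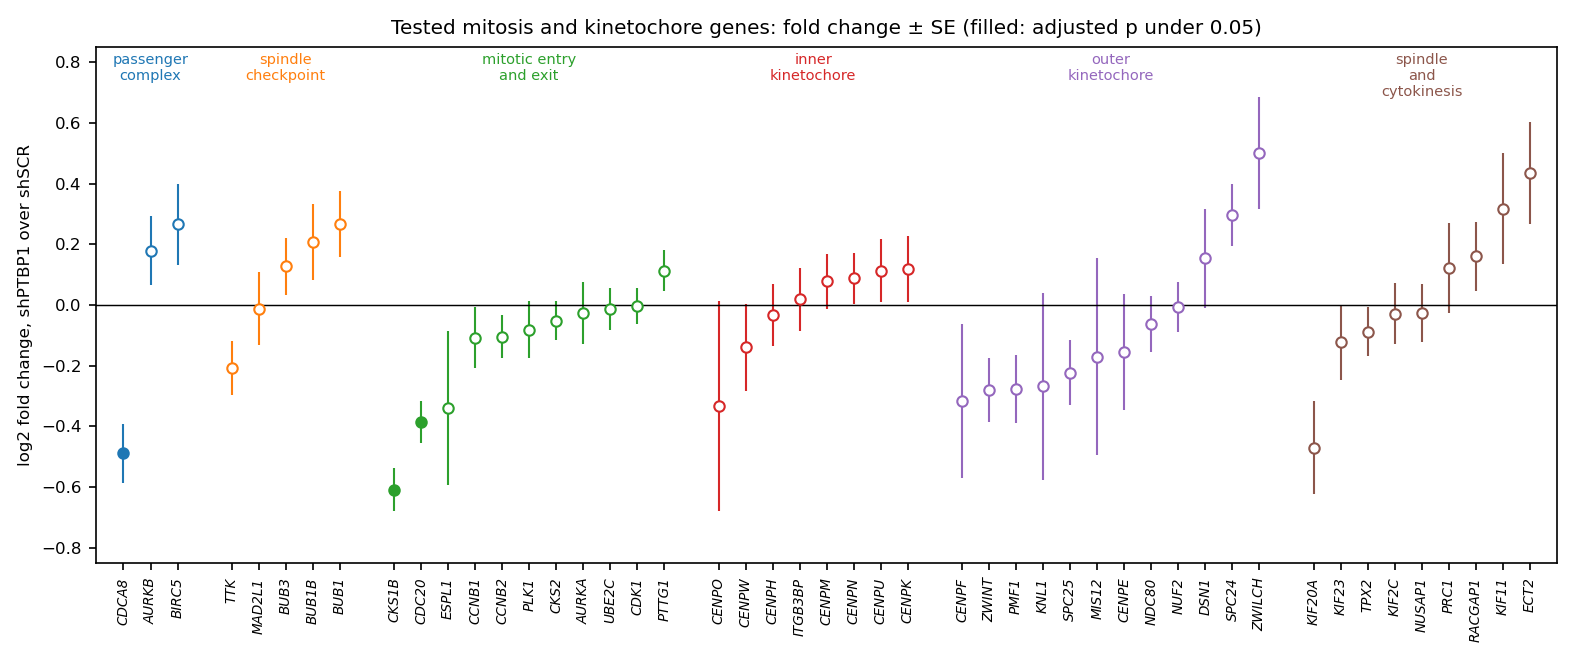
Log2 fold change of shPTBP1 over shSCR (vertical axis) for the 48 tested mitosis and kinetochore genes, grouped by role and ordered within each group, with bars of ± 1 SE. Filled points (CDCA8, CKS1B and CDC20) had an edgeR adjusted p under 0.05, open points did not, and the values run from -0.61 for CKS1B to 0.50 for ZWILCH.

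Among the genes of mitotic entry and exit 2 of 11 were called, CKS1B and CDC20. CKS1B (ENSG00000173207), a small subunit that binds CDK1 and CDK2 and helps the SCF-SKP2 ubiquitin ligase recognize the inhibitor p27, had 304, 303, 357 and 333 counts in the shPTBP1 libraries and 524, 502, 475 and 505 in the shSCR libraries. Every shPTBP1 library was lower than every shSCR library, by a wide margin, and the shSCR libraries were nearly equal. Its level was 210 ± 18.7 CPM after shPTBP1 and 321 ± 3.13 CPM after shSCR (SD, n = 4 each), a fold of 0.656 (log2 fold change -0.61, SE 0.07, edgeR adjusted p = 0.000289). CKS2, its close paralog with the same role at CDK1, had 641 to 690 counts after shPTBP1 and 664 to 729 after shSCR, which overlap (log2 fold change -0.05, SE 0.06, edgeR adjusted p = 0.729). The 7 annotated pseudogenes of CKS1B held 1 count in all.

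CDC20 (ENSG00000117399), the activator of the anaphase-promoting complex, had 1181, 1228, 1136 and 1156 counts in the shPTBP1 libraries and 1500, 1747, 1372 and 1607 in the shSCR libraries, again with no overlap. Its level fell from 995 ± 94.6 to 762 ± 33.3 CPM (SD, n = 4 each), a fold of 0.765 (log2 fold change -0.39, SE 0.07, edgeR adjusted p = 0.00721). Other genes of mitotic entry and exit were not called. CDK1, the kinase itself, was at 393 ± 19.9 and 394 ± 8.89 CPM with a log2 fold change of -0.0034 (SE 0.06). The mitotic cyclins CCNB1 and CCNB2 had log2 fold changes of -0.11 (SE 0.10) and -0.11 (SE 0.07). UBE2C, the ubiquitin-conjugating enzyme of the anaphase-promoting complex, had -0.01 (SE 0.07), and securin, PTTG1, had 0.11 (SE 0.07). Over the 11 genes of this group the median log2 fold change was -0.08, and 10 of the 11 values were negative, as were 50% of those of all genes. Over the 48 tested genes of the list 30 were negative. In the other role groups it was 1 of 3 in the passenger complex, 2 of 5 in the spindle checkpoint and 3 of 8 in the inner kinetochore. It was 9 of 12 in the outer kinetochore and 5 of 9 among spindle and cytokinesis genes.

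In the chromosomal passenger complex 1 subunit of the 3 tested was called. CDCA8 (borealin, ENSG00000134690), which helps to place the complex at the centromere, had 148, 111, 145 and 123 counts after shPTBP1 and 187, 199, 186 and 177 after shSCR. The groups did not overlap. Its level fell from 120 ± 6.54 to 85.3 ± 10.9 CPM (SD, n = 4 each), a fold of 0.712 (log2 fold change -0.49, SE 0.10, edgeR adjusted p = 0.0128). Its partner BIRC5 (survivin), which binds the phosphorylated histone mark of the centromere, had 74, 98, 75 and 85 counts after shPTBP1 and 74, 82, 62 and 62 after shSCR, which overlap (log2 fold change 0.27, SE 0.13, edgeR adjusted p = 0.298). AURKB, the kinase of the complex, had 98, 88, 86 and 85 counts and 76, 88, 86 and 69 (log2 fold change 0.18, SE 0.12, edgeR adjusted p = 0.431). The tested subunits of this complex thus did not share a direction in their point estimates.

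**Figure D2:**
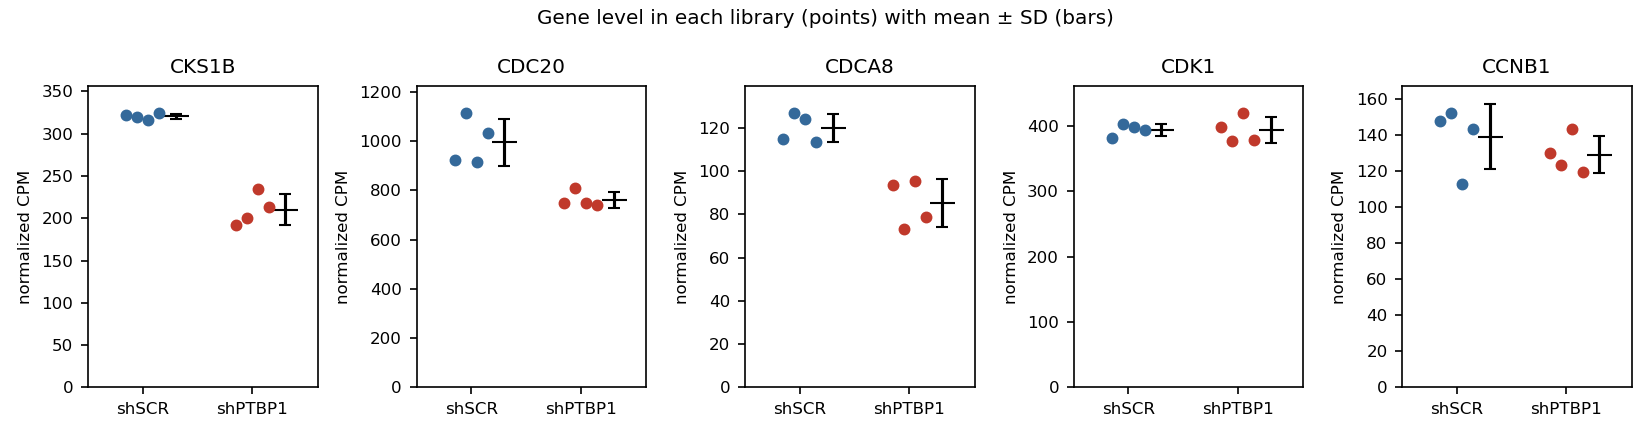
Normalized CPM (vertical axis, from 0) in each library for the 3 called genes and for CDK1 and CCNB1 beside them, with shSCR in blue and shPTBP1 in red, and black bars for the mean ± SD of 4 libraries. CKS1B, CDC20 and CDCA8 were lower in all 4 shPTBP1 libraries than in any shSCR library, and the points of CDK1 and CCNB1 overlap.

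The 3 called genes all lie on chromosome 1, CDCA8 from 37692481 to 37709719 and CDC20 from 43358981 to 43363203 on the short arm, and CKS1B from 154974653 to 154979251 on the long arm (hg38, all on the plus strand). They were 3 of the 8 tested genes of this list on that chromosome, and 0 of the 40 on other chromosomes were called. Chromosome 1 as a whole did not stand out in the same way: 3.86% of its 829 tested genes were called lower, against 3.10% of the 6768 on other chromosomes, and its median log2 fold change was -0.01. Among the tested neighbours within 1 Mb, 0 of the 29 around CKS1B were called lower, 1 of the 24 around CDC20 and 0 of the 9 around CDCA8, and their median log2 fold changes were -0.04, 0.01 and -0.17. The position on this chromosome was noticed after the values were seen.

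The promoters of the 3 genes are shown because genes that peak in G2 and M phase often carry a cell cycle genes homology region, whose core is TTTGAA, next to CCAAT boxes bound by NF-Y. The 100 bases before the RefSeq start (GRCh38.p14, plus strand) are printed 5′ to 3′, with the motif TTTGAA and the motif CCAAT, on either strand, in capitals. The search was chosen after the values were seen. In CDCA8 the end of TTTGAA overlaps a CCAAT read on the reverse strand.
CDCA8 (chr1:37692416-37692515): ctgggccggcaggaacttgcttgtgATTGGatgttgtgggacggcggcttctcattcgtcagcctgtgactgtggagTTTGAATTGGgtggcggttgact
CDC20 (chr1:43358881-43358980): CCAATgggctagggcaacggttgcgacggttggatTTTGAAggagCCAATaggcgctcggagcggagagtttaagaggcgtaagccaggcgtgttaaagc
CKS1B (chr1:154974581-154974680): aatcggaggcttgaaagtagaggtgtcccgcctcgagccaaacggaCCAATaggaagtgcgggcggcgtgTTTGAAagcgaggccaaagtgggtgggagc

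All 3 windows held both motifs. RefSeq promoters were at hand for 40 of the 50 genes, with 46 start sites. TTTGAA was in 16 of these 46 windows (34.8%) and in 4.61% of all 35116 windows of the same length, and CCAAT was in 29 of the 46 (63.0%) and in 18.1% of all. Many genes of the list thus hold the letters of 1 or both motifs although their levels were not called, and the matches say nothing about which factors were bound.

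No gene of the spindle checkpoint was called among the 5 tested. BUB1, a kinase that marks the inner centromere and recruits other checkpoint proteins, had 133, 107, 116 and 108 counts after shPTBP1 and 112, 106, 85 and 88 after shSCR. In CPM its groups did not overlap, and it was the only gene of the 48 that lay higher without overlap (log2 fold change 0.27, SE 0.11, edgeR adjusted p = 0.195), where 6.32% of all genes did. TTK (MPS1), the kinase that starts checkpoint signalling, had 153, 139, 128 and 136 counts after shPTBP1 and 169, 169, 139 and 174 after shSCR (log2 fold change -0.21, SE 0.09, edgeR adjusted p = 0.218). BUB1B, BUB3 and MAD2L1, which form the inhibitor of CDC20, had log2 fold changes of 0.21, 0.13 and -0.01.

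Most tested genes of the inner kinetochore had point estimates near 0. None of the 8 tested was called, or had an unadjusted p under 0.05, and their median log2 fold change was 0.05. CENPO had 13, 6, 12 and 9 counts after shPTBP1 and 8, 17, 15 and 11 after shSCR (log2 fold change -0.33, SE 0.35, edgeR adjusted p = 0.666), which is too shallow to show a change of this size. CENPW, a histone-fold protein of the centromere, had 64, 64, 60 and 44 counts and 61, 72, 59 and 67 (log2 fold change -0.14, SE 0.14, edgeR adjusted p = 0.660). CENPH, CENPK, CENPM, CENPN and CENPU lay between -0.03 and 0.12. ITGB3BP, which is CENP-R of the same network, is described with the isoforms.

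In the outer kinetochore 0 of 12 were called and 4 had an unadjusted p under 0.05, PMF1 and ZWINT lower and SPC24 and ZWILCH higher. ZWILCH, part of the complex that brings dynein to the kinetochore, had 39, 54, 58 and 56 counts after shPTBP1 and 40, 29, 44 and 35 after shSCR, which overlap (log2 fold change 0.50, SE 0.18, edgeR adjusted p = 0.145). CENPF, a large microtubule-binding protein, had 23, 14, 11 and 13 counts and 21, 20, 18 and 18 (log2 fold change -0.32, SE 0.25, edgeR adjusted p = 0.555). The subunits of the NDC80 complex, which form 1 rod, had log2 fold changes of -0.06 for NDC80, -0.01 for NUF2, 0.30 for SPC24 and -0.22 for SPC25. PMF1, a subunit of the MIS12 complex, was lower in every shPTBP1 library than in any shSCR library, at 49.6 ± 5.69 and 60.1 ± 3.70 CPM (SD, n = 4 each; log2 fold change -0.28, SE 0.11, edgeR adjusted p = 0.192). Its locus also has a read-through gene, PMF1-BGLAP, with 43 counts in all, 6.30% of those of PMF1, and reads of the shared exons could have gone to either.

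Among the 9 spindle and cytokinesis genes 0 were called. KIF20A (MKLP2), the kinesin that carries the passenger complex to the midzone, had 39, 33, 29 and 37 counts after shPTBP1 and 52, 54, 41 and 47 after shSCR. The groups did not overlap (log2 fold change -0.47, SE 0.15, edgeR adjusted p = 0.0987). ECT2, the exchange factor that activates RhoA at the division plane, had 70, 74, 61 and 61 counts and 36, 65, 47 and 51, which overlap in CPM (log2 fold change 0.44, SE 0.17, edgeR adjusted p = 0.173). Its partner RACGAP1 had a log2 fold change of 0.16 (SE 0.11), and KIF23, which forms centralspindlin with RACGAP1, had -0.12 (SE 0.12). With CKS1B, CDC20, CDCA8 and PMF1, KIF20A made 5 genes of the 48 that lay lower without overlap, where 6.37% of all genes did.

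The wider set of mitosis genes, 104 genes of the anaphase-promoting complex, cohesin and condensin, further kinetochore and checkpoint proteins, the spindle and centrosome, and mitotic regulators, was read from the same test. Of the 90 that could be tested 2 (2.22%) were called lower, 0 higher, and the median log2 fold change was 0.02. BORA, the cofactor through which AURKA activates PLK1, had 39, 35, 31 and 42 counts after shPTBP1 and 60, 59, 61 and 59 after shSCR, with no overlap (log2 fold change -0.68, SE 0.14, edgeR adjusted p = 0.0128). Its partners AURKA and PLK1 had log2 fold changes of -0.03 (SE 0.10) and -0.08 (SE 0.09) and were not called. ENSA, which with ARPP19 inhibits the phosphatase PP2A-B55 in mitosis, had 1043, 847, 915 and 999 counts and 1231, 1038, 1185 and 1268 (log2 fold change -0.30, SE 0.08, edgeR adjusted p = 0.0364). The call of ENSA was lost without any 1 of 6 libraries (all but shPTBP1 replicate 1 and shSCR replicate 2), with an adjusted p of up to 0.117. FOXM1, the transcription factor of the G2 and M wave, had a log2 fold change of -0.05 (SE 0.18), and TOP2A had -0.06 (SE 0.07).

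Long reads also allow each gene's counts to be split among its annotated transcripts, and the fraction on each was taken as its isoform share. The 50 genes had counts on 222 transcripts, of which 59, in 25 genes, could be tested (edgeR, diffSpliceDGE). To be called, a transcript needed an adjusted p under 0.05 and a mean share that moved by at least 10 percentage points, which 1.12% of the 5464 transcripts tested met. Here 3 of the 59 were called, in 2 of the 25 genes, ITGB3BP and AURKB, where 2.13% of all 2163 genes had a called transcript. Both genes had been singled out when the list was made, with earlier results of these data known.

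ITGB3BP encodes CENP-R, a subunit of the CENP-O complex of the inner kinetochore, and its gene total did not move: it had 100, 81, 102 and 91 counts after shPTBP1 and 92, 98, 87 and 97 after shSCR, or 60.5 ± 5.93 and 59.8 ± 2.97 CPM (SD, n = 4 each; log2 fold change 0.02, SE 0.10, edgeR adjusted p = 0.954). What differed was the kind of transcript. ITGB3BP-212 (ENST00000489099.5), annotated as a target of nonsense-mediated decay, held 66, 61, 66 and 58 counts after shPTBP1 and 23, 26, 24 and 27 after shSCR. ITGB3BP-201 (ENST00000271002.15), a coding transcript, held 23, 16, 23 and 27 counts and 51, 61, 50 and 61. The most abundant form thus differed between the groups in every library.

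In shares of the gene's counts, ITGB3BP-212 was at 67.4% ± 5.33 after shPTBP1 and 26.7% ± 1.29 after shSCR (SD, n = 4 each), 40.7 points higher (edgeR diffSpliceDGE adjusted p = 6.90e-06), and ITGB3BP-201 was at 23.7% ± 4.20 and 59.5% ± 3.64 (adjusted p = 2.37e-06). By annotated class, the coding transcripts of ITGB3BP fell from 38.9 ± 2.42 to 15.5 ± 2.58 CPM, a ratio of 0.399, and those annotated for decay rose from 16.0 ± 1.36 to 40.7 ± 2.68 CPM, a ratio of 2.54 (SD, n = 4 each). A test on gene sums alone did not show this exchange, because both classes count toward the same total.

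**Figure D3:**
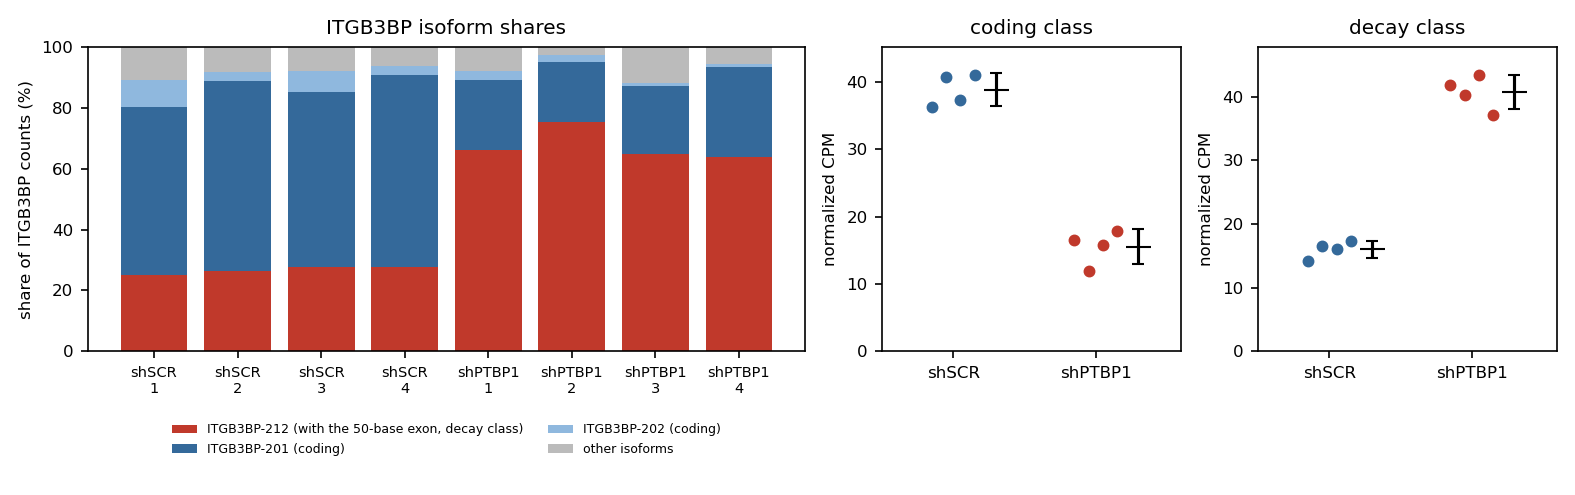
Left, share of ITGB3BP counts (vertical axis, percent) on each isoform in each of the 8 libraries; right, normalized CPM of the coding and of the decay-annotated transcripts, with points for libraries and bars for the mean ± SD. ITGB3BP-212 takes 63.7 to 75.3% of the counts in the shPTBP1 libraries and 25.0 to 27.8% in the shSCR libraries.

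ITGB3BP-212 includes and ITGB3BP-201 skips 1 exon of 50 bases on chromosome 1 (hg38, chr1:63447565-63447614, minus strand). Their annotated 5′ ends differ as well, at 63523502 for ITGB3BP-212 (1285 bases long) and 63523225 for ITGB3BP-201 (961 bases). Only ITGB3BP-212, among the transcripts with counts, holds the exon. Inclusion of the exon and use of the upstream start therefore cannot be told apart in these counts. The length of the exon is not a multiple of 3, so that it shifts the reading frame. It also holds an in-frame stop codon that lies 72 bases before the last exon junction. The exon is shown 5′ to 3′ on the transcript strand of hg38, with that stop codon in capitals.
ITGB3BP exon: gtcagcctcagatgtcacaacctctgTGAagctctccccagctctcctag

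The open reading frame annotated for ITGB3BP-212 has 510 bases, that of ITGB3BP-201 531. Among transcripts that either include the exon or span it, inclusion was 71.0, 77.2, 73.3 and 67.4% in the shPTBP1 libraries and 27.7, 28.6, 30% and 29.7% in the shSCR libraries. The groups were far apart, with means of 72.2% ± 4.11 and 29.0% ± 1.05 and a difference of 43.3 points (SD, n = 4 each). This restates the exchange of ITGB3BP-212 for ITGB3BP-201 from the same counts and is no further test of it.

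A further ITGB3BP exon of 117 bases (chr1:63510065-63510181), used by the coding ITGB3BP-202, was included in 1.90% ± 1.01 of the counts after shPTBP1 and 5.47% ± 2.85 after shSCR (SD, n = 4 each). These shares rest on 1 to 3 and 3 to 8 counts, and the groups came close to touching. ITGB3BP-204, annotated without a reading frame, held 5.70% ± 2.60 and 7.26% ± 1.54 of the counts, which overlap.

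In AURKB the called transcript was AURKB-202 (ENST00000534871.5), which had 11, 4, 7 and 7 counts after shPTBP1 and 18, 20, 18 and 8 after shSCR. Its share was 8.04% ± 2.73 and 19.7% ± 5.55 (SD, n = 4 each; edgeR diffSpliceDGE adjusted p = 0.0396). The shares did not overlap, but the lowest shSCR library, replicate 4, was at 11.6% and the highest shPTBP1 library, replicate 1, at 11.2%. The call was lost without any 1 of 6 libraries (all but those nearest, shPTBP1 replicate 1 and shSCR replicate 4), with an adjusted p of up to 0.307. It was also lost with the replicate number as a block (adjusted p = 0.0746) and among transcripts with a mean of at least 10 counts (adjusted p = 0.0852), over alternatives that ran from 0.0316 to 0.0852, and the change is under a minimum of 20 points. The transcript had at most 20 counts in a library.

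AURKB-202 lacks an exon of 73 bases (hg38, chr17:8210177-8210249, minus strand) that the other main forms, AURKB-214 and AURKB-201, include. That exon holds their start codon, and without it the annotated reading frame begins in the next exon, with 303 codons in place of the 344 of AURKB-214. The coding part of the exon is shown with the start codon in capitals, followed by the 100 intronic bases before the exon (chr17:8210250-8210349), which hold a run of hexamers that PTBP1 is known to prefer, in capitals.
AURKB exon, coding part (chr17:8210177-8210224): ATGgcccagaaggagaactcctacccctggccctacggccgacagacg
AURKB intron before the exon: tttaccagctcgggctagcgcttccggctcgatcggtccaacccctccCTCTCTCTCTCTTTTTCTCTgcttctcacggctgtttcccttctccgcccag

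The motifs searched were the hexamer CTCTCT, the hexamer CTCTTT, the hexamer TTCTCT and the hexamer TTCTTT, on the transcript strand, with overlapping matches counted. The AURKB window held 6 matches and 75% pyrimidines. Of the 79992 windows of 100 bases before internal exons of the tested genes, 38.8% held at least 1 match and 0.201% held 6 or more. The matches say nothing about whether PTBP1 was bound, and their part in the use of the exon was not tested. Inclusion of the exon was 88.8, 95.5, 91.8 and 91.7% in the shPTBP1 libraries and 76.3, 77.3, 79.1 and 88.4% in the shSCR libraries. All shPTBP1 values were higher, though only just in 1 pair of libraries. The means were 91.9% ± 2.74 and 80.3% ± 5.55, a difference of 11.6 points (SD, n = 4 each). Since AURKB-202 is the form without the exon, these values come from the same counts as its share and are no further test of it. The exon lies near the 5′ end, where a cDNA read that stops short cannot tell the forms apart. RefSeq also places a transcript start at its first base, and for a transcript from that start the 100 bases before it are promoter, not intron. How reads that stop short were assigned is not given in the sources used here, and their part in the difference was not tested.

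Across the 50 genes 33 internal exons in 22 genes had enough counts on both forms to measure inclusion. In 5 of the 33 the groups did not overlap, against 8.08% of 5468 such exons in all genes. Of these 4 were included more after shPTBP1, the exons of ITGB3BP and AURKB above and a pair in KIF23, where 4.32% of all such exons were. The 117-base exon of ITGB3BP was included less, as were 3.77% of all such exons. ITGB3BP and AURKB had been singled out with earlier results of these data known, and the KIF23 exons share transcripts. These counts are therefore a description and no support for an excess over the share in all genes. The 4 exons included more each differed by over 10 points. Of all 5468 exons, 3.09% both lacked overlap and differed by at least 10 points, in either direction.

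KIF23 is named here after its values were seen. Its 312-base exon (chr15:69440768-69441079, plus strand) separates the longer form, known as CHO1, from the shorter MKLP1, and encodes a region known to bind actin. Inclusion of this exon was 42.2, 47.1, 33.3 and 40.0% after shPTBP1 and 30.6, 30.3, 29.8 and 31.4% after shSCR. A second exon of 42 bases (chr15:69425282-69425323) was included at 23.3, 29.9, 21.9 and 26.7% and at 16.3, 17.2, 13.5 and 14.3%. Both lengths are multiples of 3 and keep the frame. The differences of the means were 10.1 points for each exon, and the exons share transcripts, above all KIF23-216, which has both. No KIF23 transcript was called: KIF23-216 had a diffSpliceDGE adjusted p of 0.398. The annotated KIF23-201, KIF23-202 and KIF23-216 are 3351 to 3723 bases long. A cDNA read that stops short of an exon cannot tell its forms apart, and the part of such reads in these differences was not tested. The 100 bases before the 312-base exon held 1 hexamer match and those before the 42-base exon none.

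**Figure D4:**
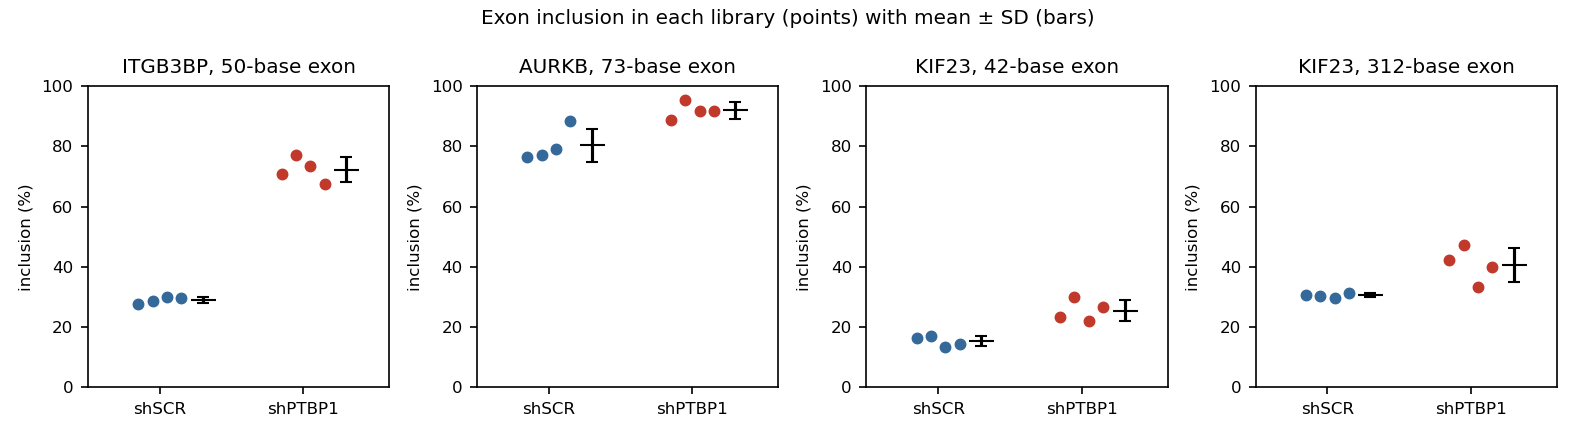
Exon inclusion (vertical axis, percent of the counts on transcripts that include or span the exon) in each library, shSCR in blue and shPTBP1 in red, with bars for the mean ± SD of 4 libraries. The 50-base exon of ITGB3BP is near 29.0% after shSCR and 72.2% after shPTBP1, and the exons of AURKB and KIF23 differ by 10.1 to 11.6 points.

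A large share of decay-annotated transcripts was not in itself a mark of the shPTBP1 libraries. MAD2L1, the checkpoint protein that holds CDC20, had 51.0% of its counts on decay-annotated transcripts after shPTBP1 and 46.2% after shSCR, with libraries from 47.7 to 55.1% and from 42.4 to 50.4%. CENPU, a partner of CENP-R in the CENP-O complex, had 40.8% and 35.8%, with ranges of 36.8 to 48.2% and 30.9 to 46.5%. KNL1, the scaffold of the outer kinetochore, had 32.6% and 35.3% on 7 to 21 counts per library. In these 3 genes the groups overlapped, unlike in ITGB3BP. KIF11, the kinesin that pushes spindle poles apart, had 2.83% and 8.31%, on 16 decay-annotated counts in all. Its ranges, 0 to 6.98% and 6.90 to 11.1%, overlapped as well. CKS1B, CDC20 and CDCA8 had no count on a decay-annotated transcript, and at least 99.7% of the counts of each gene in each library lay on coding transcripts.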

How the data were processed

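RNA from MOLM-13 cells was sequenced as nanopore cDNA in 4 shPTBP1 and 4 shSCR libraries. The authors used minimap2 on hg38, kept reads of high mapping quality, and deposited counts for annotated transcripts made with StringTie. Tool versions and the annotation are not given in the sources used here. A deposited CPM table matched the counts scaled to their totals within 1e-06 and served limma-trend only. Transcripts were matched to GENCODE v44 (252562 of 254070; the 1508 others held 0.0876 to 0.115% of counts and stayed out) and summed per gene.

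Tests used edgeR 4.0.16 (TMM, default filterByExpr, glmQLFTest; diffSpliceDGE for isoforms) under R 4.3.3. They were first tested on simulated data. The genes, lists and isoforms were chosen with earlier results of these data known. Named with values in every library were PTBP1, called genes, ITGB3BP, AURKB and, in each role group, the 2 genes with the largest absolute log2 fold change; called genes of the wider list were also named. CPM and SD are after TMM scaling. An SE is the log2 fold change over the square root of F. The labels call the libraries biological replicates; whether each is a separate dox induction is not stated, and p-values measure the spread between these libraries. The biological coefficient of variation was 10.3%. In thinly counted genes the sampling noise of low counts adds to it, so that small changes there were not detectable at this depth. Groups came from the labels, and replicate numbers did not pair the libraries (correlations of same-numbered libraries from -0.0328 to 0.00889). Exon inclusion required a mean of 10 informative counts and 8 counts on each form. Alternatives were DESeq2 1.42.0, limma 3.58.1 (voom, trend with a pseudocount of 1, diffSplice), DESeq2's size factors, other filters, thinning to the smallest library, a replicate block and leaving out each library. The sequence beside 1 exon is not reported here.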

Additional observations from a re-analysis of the deposited data

Results flagged for a closer look

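CDC20 in shPTBP1 replicate 2 lay apart from the other shPTBP1 libraries, at 811 CPM against 740 to 748 CPM, with a gap that was 0.892 of the group's range and over Dixon's limit for a group of 4. It was still below every shSCR library. Chance alone flags about 1 in 20 groups, and 46 groups were looked at.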

How the results depend on the processing

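CKS1B, CDC20 and CDCA8 were the genes of the list called under each of the 8 alternatives and in each of the 8 fits without 1 library; their adjusted p stayed at or under 0.0466. The median over the list moved to -0.067 with limma-trend on log2(CPM + 1), where the median of all genes was -0.04, and ranged from -0.040 to -0.014 without single libraries. The ITGB3BP gene total, not called in any fit, was -0.024 with limma-trend and from -0.031 to 0.072 without single libraries. The count of wider mitosis genes called was 1 with a mean of at least 50 counts, which removes BORA, and 1 to 2 without single libraries. The count of all genes called ranged from 184 to 358 without single libraries.

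With the replicate block, the exon differences of ITGB3BP (43.3 points) and AURKB (11.6 points) had an exact sign-flip permutation p of 0.125. That is the smallest that 4 pairs allow. Without the block the exact permutation p was 0.0286, the smallest for 4 against 4 libraries. Each exon was the one that separates the 2 isoforms whose shares moved most in opposite directions in these same libraries. The exact p-values, with or without single libraries, are therefore no independent support for the differences. The block left 323 genes called, among them CKS1B, CDC20 and CDCA8, and 2 isoforms of the list in place of 3. The isoform lost was AURKB-202, whose adjusted p ranged from 0.0316 to 0.0852 over the alternatives; it was lost with the block, with a mean of at least 10 counts per transcript and with a minimum change of 20 points. The AURKB exon difference ranged from 10.3 to 14.4 points without single libraries, and its exact permutation p was 0.0571 without any 1 shPTBP1 library, where 0.0286 is the smallest possible. The ITGB3BP isoforms were called in every fit. Depth limits genes such as CENPA, INCENP, CENPO, MIS12 and KNL1, with at most 21 counts in a library.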

Other observations

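Genes of the wider list that were not called included both signs within 1 complex. In the anaphase-promoting complex ANAPC11 and CDC23 had log2 fold changes of 0.19 (SE 0.06, edgeR adjusted p = 0.112) and 0.22 (SE 0.09, adjusted p = 0.181), and CDC26 had -0.28 (SE 0.10, adjusted p = 0.145). In the SKA complex, which tracks microtubule ends beside NDC80, SKA2 had -0.26 (SE 0.08, edgeR adjusted p = 0.087) with 130 to 144 counts after shPTBP1 and 151 to 187 after shSCR, while SKA1 had 0.00 (SE 0.08) and SKA3 0.02 (SE 0.15). CCNA2, cyclin A2, had 0.21 (SE 0.07, edgeR adjusted p = 0.108), beside the B-type cyclins at -0.11. These genes were named after their values were seen.

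UBE2S, another ubiquitin-conjugating enzyme of the anaphase-promoting complex, had 1 count over the 8 libraries, WEE1 had 0 to 4 per library and MKI67 2 to 12. They were too shallow to be tested, and no statement on their level is made.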
